A study of Homo sapiens with 18 samples.

Results

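The genes described here are 39 established targets and regulators of p53, taken by name from the authors' table of counts per gene: all genes on a list of such targets outside the CDK inhibitor, BCL2 and death receptor families. The table lists 33121 genes, 13676 of them had enough counts to be tested, and each of the 39 was among those. The cells were RPE-1, a human retinal pigment epithelial line immortalized with hTERT, and every group was transfected with an siRNA for 2 days. The 6 groups of 3 libraries were siMondoA with DXR, siMlx with DXR, siControl with DXR, siMondoA untreated, siMlx untreated and siControl untreated, where siMondoA targets MLXIP, the gene of MondoA, siMlx targets MLX, and DXR is doxorubicin at 150 ng/ml for 3 days. No group went untransfected.

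p53 is a transcription factor that is kept scarce by MDM2, a ubiquitin ligase whose gene p53 itself turns on. Doxorubicin poisons topoisomerase II and breaks DNA, which frees p53 from MDM2 so that it binds pairs of 10-base half-sites near its targets. These targets halt the cell cycle, repair DNA, tune redox and lipid metabolism, drive cell death, or close the loop by restraining p53. MondoA and its partner MLX form a dimer that senses glucose phosphates and activates genes such as TXNIP.

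Total counts per library ran from 15503423 to 29219280, the lowest correlation between replicates was 0.99, and the first principal component held 51.7% of the variance. MLXIP averaged 3.85 CPM in untreated siMondoA cells and 68.7 CPM in untreated siControl cells, and MLX averaged 7.002 CPM in untreated siMlx cells and 26.3 CPM in untreated siControl cells (CPM, counts scaled to a common total with TMM, n = 3 each). MLX was itself higher after siMondoA, at 49.2 CPM in untreated cells. Of 13 markers of retinal pigment epithelium, KRT8 and KRT18, keratins of many simple epithelia, averaged 336 and 266 CPM and the transcription factors MITF and OTX2 averaged 32.5 and 21.3 CPM in untreated siControl cells. The other 9, among them the pigment genes TYR, TYRP1, DCT and PMEL and the visual cycle genes RPE65, RLBP1 and LRAT, averaged 0.646 CPM or less there, and 1.12 CPM or less in every group. Of 8 fibroblast markers, THY1, PDGFRB, COL1A1 and PDGFRA averaged 272, 101, 97.5 and 15.15 CPM in untreated siControl cells. COL1A2, COL3A1, DCN and LUM were each under 1 CPM there, and DCN averaged 5.42 to 9.59 CPM in the DXR groups. The summed fibroblast markers ran from 631 to 944 CPM in DXR libraries and from 380 to 563 CPM in untreated ones, and 8 blood and endothelial markers summed to 1.01 to 4.75 CPM per library. A list of 20 proliferation genes moved with the groups: its summed level was 188 to 289 CPM in siMondoA DXR cells, 311 to 369 CPM in siMlx DXR cells, 565 to 673 CPM in siControl DXR cells, 676 to 1172 CPM in untreated siMondoA cells, 2266 to 2817 CPM in untreated siMlx cells and 2238 to 2938 CPM in untreated siControl cells. The part of these lists in the results below was not tested, and in bulk RNA fewer cells of a kind and less RNA per cell cannot be told apart. Untreated libraries are tagged D0 and drugged ones D5, with no meaning stated, so DXR and any difference in harvest day cannot be told apart.

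To show what p53 can recognise at some of these genes, the promoters were searched for a pair of adjacent p53 half-sites. The window ran from 250 bases before to 50 after each RefSeq gene start (RefSeq, GRCh38.p14), and 34 of the 39 genes had at least 1 window; ASCC3, FBXO22, GADD45A, PHLDA3 and TP53INP1 had none. The motif is known by name as the p53 full site, 20 bases without a spacer, and it reads the same on both strands. In the matches below, capitals mark the 4 core positions of each half-site. MDM2 and CLCA2 are shown because each holds a pair of matches, DDB2 and AEN for few mismatches, SESN1 and FDXR as called genes with a fold change above the members' median, and KITLG because its siControl response did not pass the test.
MDM2, first match: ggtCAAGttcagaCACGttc
MDM2, second match: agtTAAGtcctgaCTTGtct
DDB2: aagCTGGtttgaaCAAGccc
CLCA2, first match: aggCAAGtgtagcATTGcct
CLCA2, second match: ggaCTTGtagaggCAGGtcc
SESN1: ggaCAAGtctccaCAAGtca
FDXR: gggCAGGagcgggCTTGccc
AEN: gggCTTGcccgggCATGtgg
KITLG: ggaCAAGgttggcCTAAtct

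The MDM2 matches lie on the plus strand at chr12:68808923-68808942 and chr12:68808961-68808980, inside the gene's span and 101 and 63 bases before a RefSeq start within it, with 2 and 3 mismatches. The DDB2 match had 1 mismatch and lies at chr11:47214969-47214988, across a RefSeq start within the gene's span. With up to 3 mismatches anywhere, 10 of 34 members (29.4%) and 1745 of 27305 genes with a promoter window (6.39%) held a match. A gene counted if any of its windows held one, and genes with more windows had more sequence to match. The 34 members had 49 windows and the 27305 genes had 35116. With up to 2 mismatches, it was 3 of 34 (8.82%) and 0.82% of all genes. With the 4 core bases of each half-site exact and up to 2 mismatches elsewhere, it was 1 of 34 (2.94%) and 0.201%, and with up to 3 mismatches elsewhere it was 3 of 34 (8.82%) and 0.524%. Of these 4 match rules, the widest was settled on last, after the rules with exact core bases had been run and had missed the MDM2 sites, so the shares describe these windows only and carry no test. A match is a match of letters and not a site shown to be bound.

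**Figure D1:**
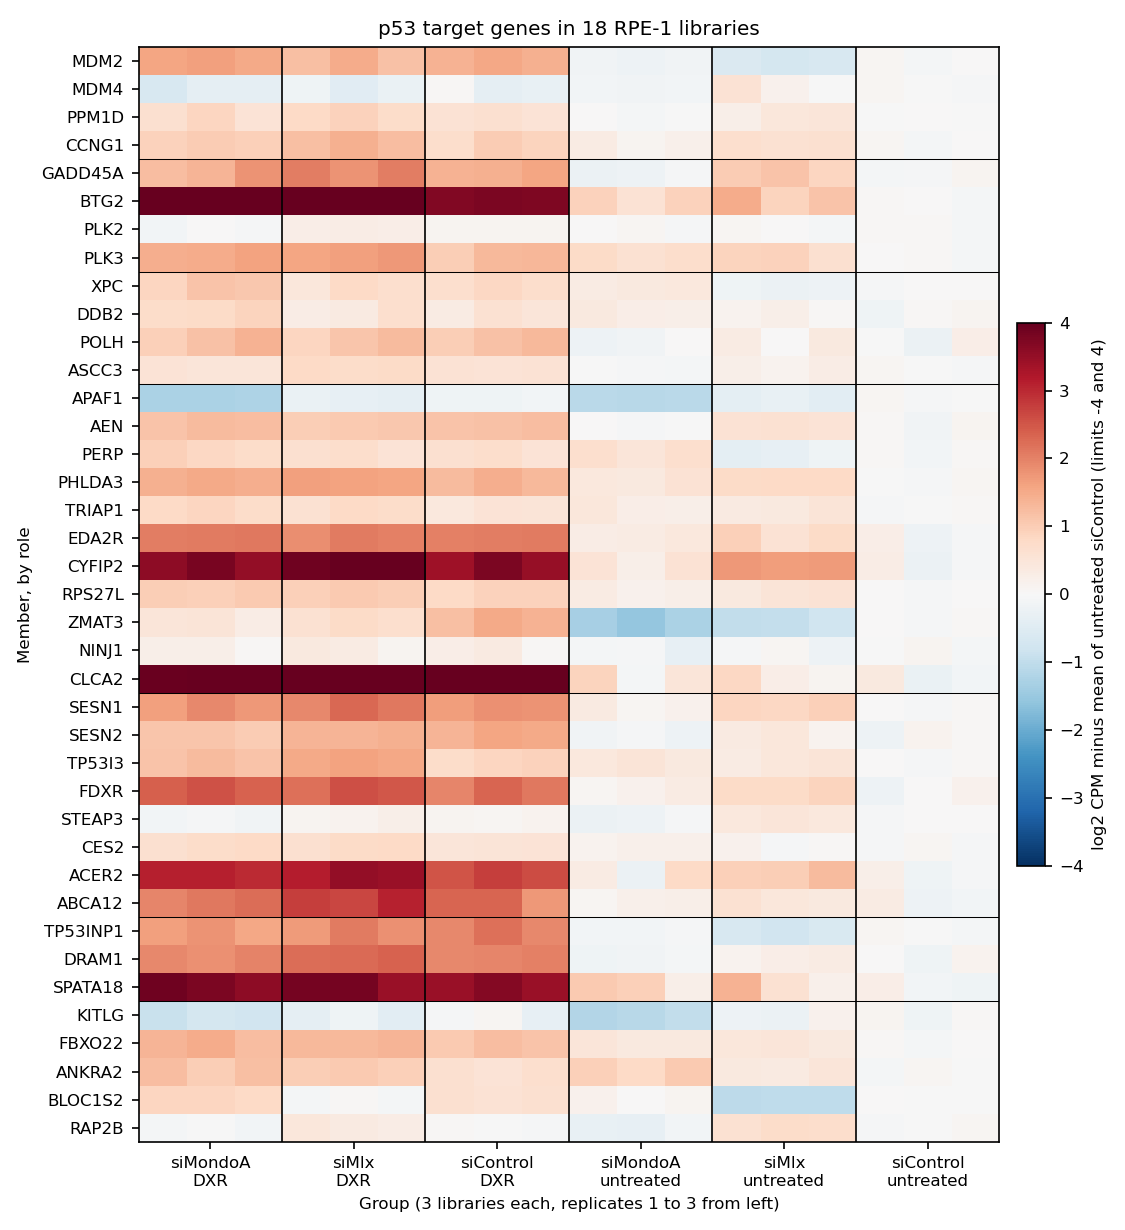
Level of each of the 39 members in the 18 libraries, as log2 CPM minus the mean of untreated siControl; rows are grouped by role and columns by group, with replicates 1 to 3 from the left. The 9 DXR libraries on the left are red for most members, with a median member between 0.98 and 1.19 log2 units above untreated siControl in each of them.

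With siControl, DXR raised 33 of the 39 members and lowered 1, and 20 of the 33 were at least 2-fold higher. Over all tested genes, 28.1% were called higher and 28.6% lower by the same rule (adjusted p under 0.05 in edgeR's quasi-likelihood test, after Benjamini-Hochberg). The share of all tested genes at the 2-fold cut is not given, here or below, so the 2-fold counts describe the members alone. The median log2 fold change was 1.15 over the members and -0.01 over all tested genes. The members not past the test were MDM4, PLK2, STEAP3, KITLG and RAP2B.

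Among the brakes on p53, MDM2 had 327, 366 and 335 CPM in DXR cells, against 130, 117 and 125 CPM in untreated cells, with siControl. The groups did not overlap, and MDM2 was 2.76-fold higher (log2 1.46, SE 0.07, adjusted p = 9.44e-12). CCNG1, a cyclin that brings a phosphatase to MDM2, rose by 0.89, and PPM1D, the phosphatase WIP1 that reverses damage signalling, rose by 0.61 on the log2 scale. MDM4, which blocks the activation domain of p53, had 5.30, 3.84 and 4.08 CPM in DXR cells, against 5.45, 5.04 and 4.91 CPM in untreated cells, and its difference of -0.22 did not pass the test (adjusted p = 0.246).

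The growth arrest gene BTG2 had 30.3, 32.3 and 31.2 CPM in DXR cells, against 1.97, 1.94 and 1.77 CPM in untreated cells. The lowest DXR library was far above the highest untreated one, and the gene was 16.5-fold higher (log2 4.04, SE 0.13, adjusted p = 6.01e-14). GADD45A, a stress-induced inhibitor of the cycle, had 80.1, 82.2 and 93.2 CPM in DXR cells, against 29.2, 29.9 and 32.8 CPM in untreated cells. It rose by 1.48, and PLK3, a polo-like kinase active in stress responses, rose by 1.23. PLK2, the most abundant member per gene length in every group (221 RPKM in DXR and 219 RPKM in untreated siControl cells), differed by 0.10 and did not pass (adjusted p = 0.108).

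All 4 repair and bypass genes rose: POLH, the polymerase that copies past damaged bases, by 1.15, XPC and DDB2, which recognise lesions for nucleotide excision repair, by 0.75 and 0.49, and ASCC3, a helicase of alkylation repair, by 0.58 on the log2 scale.

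In the cell death and survival group, 10 of 11 rose and APAF1 fell. CLCA2, a membrane protein shed from epithelial cells, had 10.9, 13.0 and 12.8 CPM in DXR cells, against 0.368, 0.0509 and 0.108 CPM in untreated cells. These were 735 and 15 counts, a ratio of 63.1 (95% exact interval from counting error 38 to 113), and the fitted change was 5.94 (SE 0.34, adjusted p = 5.61e-11), or 7.08 without untreated siControl replicate 1. CLCA2, like ABCA12, passed the filter on low counts through the DXR groups alone, so its difference was built into its passing. Both genes are among the raised members counted with each siRNA. CYFIP2, a partner of the WAVE actin regulator and of FMRP, had 53.8, 70.1 and 57.9 CPM in DXR cells, against 5.92, 3.87 and 4.47 CPM in untreated cells. It was 12.5-fold higher (log2 3.64, SE 0.14, adjusted p = 3.17e-13). EDA2R, a receptor of the TNF receptor family, rose by 2.11 (SE 0.11, adjusted p = 1.17e-11), ZMAT3, an RNA-binding zinc finger protein that alters splicing, by 1.38, PHLDA3, an inhibitor of AKT, by 1.35, and AEN, a nuclease that acts in apoptosis, by 1.19. NINJ1, a mediator of membrane rupture, rose by 0.23 (adjusted p = 0.049), a call that ended without any of 4 libraries (DXR replicates 1 and 2, untreated replicates 1 and 3; adjusted p up to 0.253).

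APAF1, the scaffold of the apoptosome, had 29.09, 29.03 and 30.83 CPM in DXR cells, against 34.7, 31.8 and 32.6 CPM in untreated cells. It was the single member called lower (log2 -0.16, SE 0.06, adjusted p = 0.0274), and the call ended with DESeq2 (adjusted p = 0.0641), with no low-count filter, with the 2 groups fitted alone, and without DXR replicate 1 or 2 or untreated replicate 1 (adjusted p up to 0.128).

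Of the redox, metabolism and transport genes, 7 of 8 rose. FDXR, the mitochondrial ferredoxin reductase, had 29.8, 38.7 and 33.4 CPM in DXR cells, against 6.29, 7.44 and 8.30 CPM in untreated cells. It was 4.64-fold higher (log2 2.21, SE 0.12, adjusted p = 3.13e-11). ACER2, a ceramidase of the Golgi, rose by 3.15 (SE 0.22, adjusted p = 7.58e-10). The sestrins SESN1 and SESN2, which restrain mTORC1 under stress, rose by 1.80 and 1.51, and TP53I3, a quinone oxidoreductase, rose by 0.84. ABCA12, a lipid transporter, was at 125 and 8 counts, a ratio of 20.1 (95% exact interval from counting error 9.9 to 47.6), and its fitted change was 4.27, or 6.26 without untreated siControl replicate 1.

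The autophagy and mitochondrial genes all rose. SPATA18, which acts in removal of damaged mitochondria, had 13.2, 15.5 and 13.0 CPM in DXR cells, against 1.00, 0.662 and 0.613 CPM in untreated cells. It rose by 4.15 (SE 0.27, adjusted p = 2.27e-10). TP53INP1, a stress protein that binds autophagy proteins, had 139, 171 and 141 CPM in DXR cells, against 38.5, 36.5 and 34.9 CPM in untreated cells. It rose by 2.04 (SE 0.10, adjusted p = 6.26e-12), and DRAM1, a lysosomal membrane protein, rose by 1.98. Among the remaining genes, FBXO22, ANKRA2 and BLOC1S2 rose by 1.16, 0.65 and 0.63. KITLG, the ligand of the KIT receptor, had 58.4, 64.6 and 48.8 CPM in DXR cells, against 65.3, 54.3 and 63.4 CPM in untreated cells, groups that overlapped (log2 -0.09, adjusted p = 0.483).

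**Figure D2:**
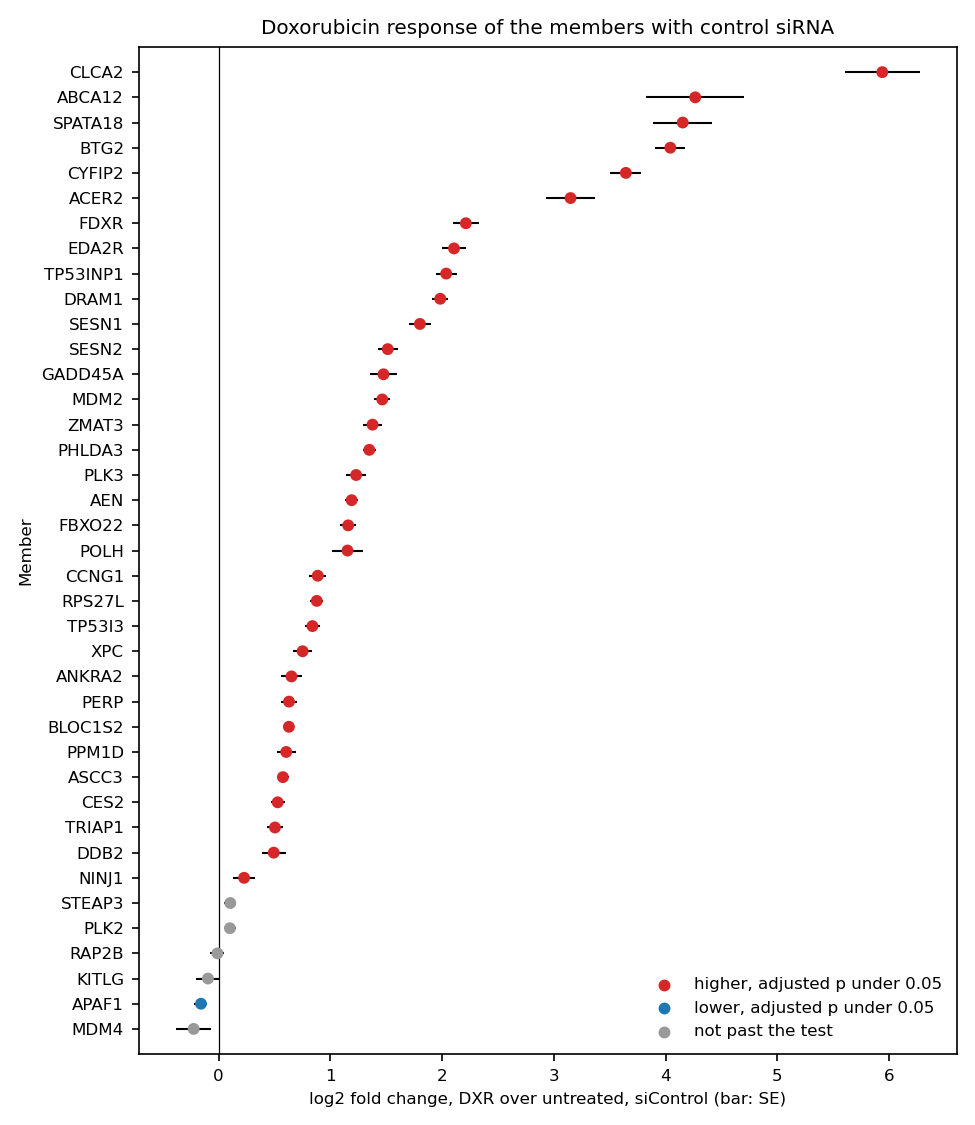
Log2 fold change of each member in DXR over untreated cells with siControl, with SE bars, sorted by size; red points were called higher, the blue point lower, and grey points did not pass. CLCA2 stands at 5.94, the middle of the list near 1.15, and MDM4 at -0.22.

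The response was measured again with each of the other siRNAs, using libraries not shared with the siControl response. The 3 responses came from 1 fit and share its estimate of the spread. The filter on low counts was shared as well, so the rises of CLCA2 and ABCA12 were built in here too. With siMondoA, DXR raised 35 members (26.2% of all tested genes) and lowered 1 (28% of all tested genes). MDM2 had 368, 388 and 359 CPM in siMondoA DXR cells, against 114, 107 and 113 CPM in untreated siMondoA cells, a rise of 1.74 (SE 0.07, adjusted p = 1.22e-12). BTG2 rose by 3.69, CYFIP2 by 3.29, SPATA18 by 3.25 and ACER2 by 3.19. CLCA2 rose by 4.80 (5.46 without untreated siMondoA replicate 1), FDXR by 2.31, DRAM1 by 2.08 and ZMAT3 by 1.82. KITLG rose by 0.32 (adjusted p = 0.0279) and RAP2B, a small GTPase, by 0.18 (adjusted p = 0.0231), calls that each ended in 4 of 13 alternatives (adjusted p up to 0.0916 and 0.126). The fall of APAF1 (-0.18, adjusted p = 0.0334) ended in 9 of 13 alternatives, without any 1 of the 6 libraries among them (adjusted p up to 0.179).

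With siMlx, DXR raised 34 members (30.9% of all tested genes) and lowered 3 (31.2% of all tested genes). MDM2 had 289, 347 and 283 CPM in siMlx DXR cells, against 82.7, 75.3 and 80.1 CPM in untreated siMlx cells, a rise of 1.95 (SE 0.07, adjusted p = 2.1e-13). CLCA2 rose by 5.28, BTG2 by 3.36, SPATA18 by 3.22, TP53INP1 by 2.57, ACER2 by 2.54, CYFIP2 by 2.37 and DRAM1 by 2.07. MDM4 fell by 0.62 (SE 0.16, adjusted p = 0.00282), RAP2B fell by 0.31 (SE 0.06, adjusted p = 0.000213) and STEAP3, a ferrireductase of iron uptake, fell by 0.29 (SE 0.06, adjusted p = 0.000126). The median member changed by 0.84 with siMondoA and 0.86 with siMlx.

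The siRNAs alone also moved the members. In untreated siMondoA cells, 16 members were higher than in untreated siControl cells (23.3% of all tested genes) and 5 were lower (23.3% of all tested genes). Of the lower members, ZMAT3, KITLG and APAF1 were each more than 2-fold lower, while SPATA18, at 0.967 to 2.06 CPM in untreated siMondoA cells, was the only member called at least 2-fold higher. The SPATA18 call (1.12, adjusted p = 0.0148) ended without untreated siControl replicate 3 or untreated siMondoA replicate 1 or 2 (adjusted p up to 0.0737). ZMAT3 had 61.1, 53.5 and 64.1 CPM in untreated siMondoA cells, against 156, 152 and 159 CPM in untreated siControl cells. It was at 38.2% of the siControl level (log2 -1.39, SE 0.08, adjusted p = 8.78e-11). APAF1 had 15.3, 15.2 and 15.4 CPM in untreated siMondoA cells, against 34.7, 31.8 and 32.6 CPM in untreated siControl cells. It was at 46.2% (log2 -1.11, SE 0.06, adjusted p = 2.29e-11). KITLG had 26.7, 27.6 and 30.5 CPM in untreated siMondoA cells, against 65.3, 54.3 and 63.4 CPM in untreated siControl cells. It was at 46.2% (log2 -1.11, SE 0.12, adjusted p = 1.55e-07). RAP2B fell by 0.25 (SE 0.06, adjusted p = 0.00325), and STEAP3 fell by 0.15 (adjusted p = 0.03), a call that ended in 7 of 13 alternatives.

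Of the members that rose, ANKRA2, an ankyrin repeat protein, had 15.5, 14.1 and 16.6 CPM in untreated siMondoA cells, against 7.42, 8.35 and 7.79 CPM in untreated siControl cells. It rose by 0.97 (SE 0.09, adjusted p = 3.34e-08). PLK3 rose by 0.70 (SE 0.09, adjusted p = 2.66e-06), and PERP, a desmosomal protein with a part in apoptosis, by 0.61 (SE 0.07, adjusted p = 1.24e-06). PHLDA3 rose by 0.46, TP53I3 by 0.45, FBXO22 by 0.43 and XPC by 0.38, with adjusted p from 3.15e-06 to 0.000888. CYFIP2 rose by 0.43 (adjusted p = 0.0421), and the call ended with the 2 groups fitted alone and without untreated siControl replicate 2 or 3 or untreated siMondoA replicate 1 or 3 (adjusted p up to 0.151). BTG2, below 5 CPM in both groups, rose by 0.95 (adjusted p = 0.000164). MDM2 had 114, 107 and 113 CPM in untreated siMondoA cells, against 130, 117 and 125 CPM in untreated siControl cells, and its difference of -0.16 did not pass the test (adjusted p = 0.0703). The groups did not overlap. MDM2 was called lower with no low-count filter (adjusted p = 0.0363), with the 2 groups fitted alone (0.0283) and without untreated siControl replicate 2 (0.0467). With the replicate number as a block, NINJ1 was also called lower (-0.15, adjusted p = 0.0223, against 0.234 without the block). Beside these values, all 20 proliferation genes were lower in untreated siMondoA cells, and CDKN1A, the p53 target that encodes p21, rose by 1.13 (SE 0.08, adjusted p = 4.68e-10).

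In untreated siMlx cells, 24 members were higher than in untreated siControl cells (24.9% of all tested genes) and 6 were lower (23% of all tested genes), with 6 at least 2-fold higher and 1 at least 2-fold lower. CYFIP2 had 16.9, 16.1 and 16.4 CPM in untreated siMlx cells, against 5.92, 3.87 and 4.47 CPM in untreated siControl cells. It was 3.40-fold higher (log2 1.77, SE 0.15, adjusted p = 7.27e-09). GADD45A had 62.7, 67.9 and 56.4 CPM in untreated siMlx cells, against 29.2, 29.9 and 32.8 CPM in untreated siControl cells. It was 2.03-fold higher (log2 1.02, SE 0.12, adjusted p = 7.25e-07). SESN1 rose by 0.90 (SE 0.10, adjusted p = 3.2e-07), FDXR by 0.84 (SE 0.13, adjusted p = 1.82e-05) and PLK3 by 0.84 (SE 0.09, adjusted p = 2.4e-07). PHLDA3 and EDA2R each rose by 0.79 and RAP2B by 0.69, with adjusted p from 1.7e-09 to 8.76e-06. BTG2 and ACER2, both under 5 CPM on average without drug, rose by 1.38 and 1.39. ABCA12, at 18 counts in untreated siMlx cells and 8 in untreated siControl cells, was called higher (1.57, adjusted p = 0.0481). That call ended in 6 of 12 alternatives, among them each other library left out, and the change was 3.56 without untreated siControl replicate 1, the library that holds most of its siControl counts.

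The 6 members that fell with siMlx included p53's own brake. MDM2 had 82.7, 75.3 and 80.1 CPM in untreated siMlx cells, against 130, 117 and 125 CPM in untreated siControl cells. It was at 63.9% of the siControl level (log2 -0.65, SE 0.07, adjusted p = 4.15e-07), with no overlap. BLOC1S2, a subunit of the lysosome-related BLOC-1 and BORC complexes, had 35.5, 36.9 and 36.9 CPM in untreated siMlx cells, against 75.6, 74.6 and 73.9 CPM in untreated siControl cells. It was at 48.8% (log2 -1.04, SE 0.05, adjusted p = 3.89e-12). ZMAT3 had 78.7, 79.9 and 89.2 CPM in untreated siMlx cells, against 156, 152 and 159 CPM in untreated siControl cells, a fall of 0.92 on the log2 scale (SE 0.08, adjusted p = 2.18e-08). TP53INP1 fell by 0.69 (SE 0.10, adjusted p = 1.52e-05), APAF1 fell by 0.38 (SE 0.06, adjusted p = 2.61e-05) and PERP fell by 0.29 (SE 0.07, adjusted p = 0.00303). Beside these, 3 of 20 proliferation genes were higher and 1 was lower, and CDKN1A rose by 1.28 (SE 0.08, adjusted p = 5.36e-11).

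**Figure D3:**
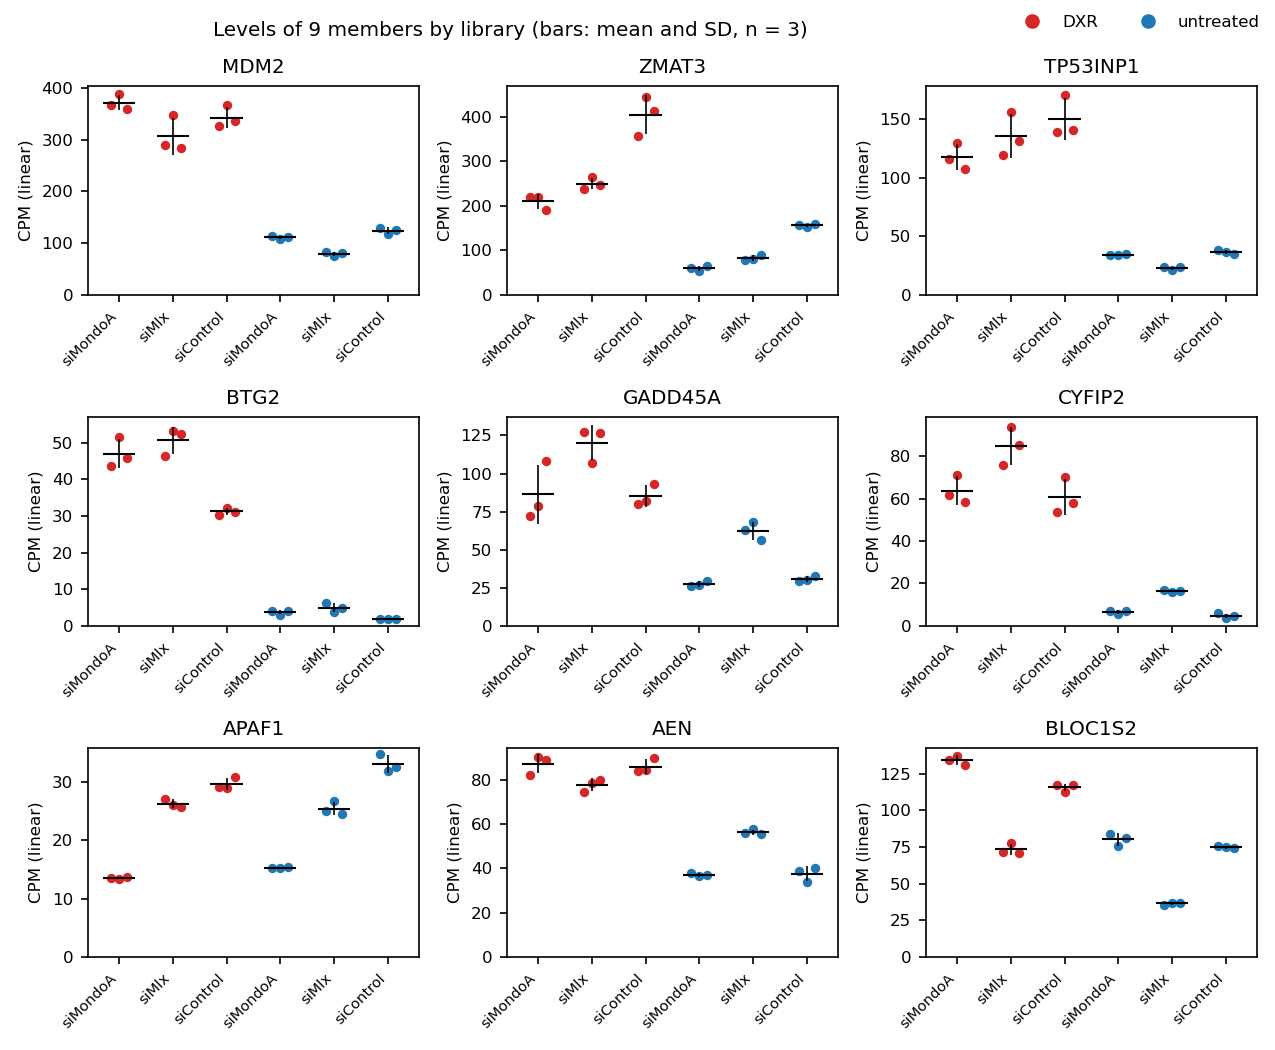
CPM of 9 members in each library, DXR groups (red) on the left and untreated groups (blue) on the right; lines are means and bars SD of 3 libraries. APAF1 sits between 13.4 and 15.4 CPM in all 6 siMondoA libraries and at 24.6 CPM or more in the other 12, and BLOC1S2 is lowest in the siMlx group of each condition.

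With DXR in both groups, fewer differences passed the test, both among members and among all genes. In siMondoA DXR cells 11 members were higher than in siControl DXR cells (10.9% of all tested genes) and 6 were lower (13.9% of all tested genes). APAF1 had 13.5, 13.4 and 13.7 CPM in siMondoA DXR cells, against 29.09, 29.03 and 30.83 CPM in siControl DXR cells (log2 -1.13, SE 0.06, adjusted p = 1.06e-10). ZMAT3 had 220, 220 and 190 CPM in siMondoA DXR cells, against 357, 445 and 412 CPM in siControl DXR cells (log2 -0.95, SE 0.08, adjusted p = 4.45e-08). KITLG had 32.9, 37.0 and 35.9 CPM in siMondoA DXR cells, against 58.4, 64.6 and 48.8 CPM in siControl DXR cells (log2 -0.70, SE 0.11, adjusted p = 0.000133). In each of these 3 genes the groups did not overlap. SESN2 fell by 0.42 (adjusted p = 0.00126), TP53INP1 fell by 0.35 (adjusted p = 0.00649, but 0.0553 without siControl DXR replicate 2) and STEAP3 fell by 0.20 (adjusted p = 0.0115).

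BTG2 had 43.8, 51.5 and 45.9 CPM in siMondoA DXR cells, against 30.3, 32.3 and 31.2 CPM in siControl DXR cells (log2 0.59, SE 0.10, adjusted p = 0.000144). ANKRA2 rose by 0.55 (adjusted p = 8.84e-05), TP53I3 by 0.35 (adjusted p = 0.000257) and TRIAP1, a small inhibitor of apoptosis, by 0.31 (adjusted p = 0.00198). DDB2 rose by 0.33, PLK3 by 0.31, and XPC and FDXR by 0.30 each. These last 4 calls each ended when 1 library was left out. PLK3 lost its call without siControl DXR replicate 1 or siMondoA DXR replicate 3 (adjusted p = 0.0782 and 0.0559), and DDB2 without these or siControl DXR replicate 3 (up to 0.126). FDXR lost it without any of the siMondoA DXR libraries or siControl DXR replicate 1 or 3 (up to 0.209), and XPC without siMondoA DXR replicate 2 (0.0619). Without siControl DXR replicate 1, 6 members in place of 11 were called higher. MDM2 differed by 0.12 and did not pass (adjusted p = 0.245). With the replicate number as a block, PERP (0.20, adjusted p = 0.0468) and ACER2 (0.46, adjusted p = 0.0372) were also called higher and PLK2 lower (-0.14, adjusted p = 0.0329). Without the block their adjusted p were 0.0522, 0.051 and 0.0583.

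In siMlx DXR cells 18 members were higher than in siControl DXR cells (14% of all tested genes) and 3 were lower (16.2% of all tested genes). TP53I3 had 81.1, 86.3 and 83.3 CPM in siMlx DXR cells, against 46.8, 51.0 and 53.6 CPM in siControl DXR cells (log2 0.73, SE 0.06, adjusted p = 2.27e-08). CCNG1 had 355, 409 and 359 CPM in siMlx DXR cells, against 250, 313 and 287 CPM in siControl DXR cells (log2 0.40, SE 0.07, adjusted p = 0.000349). Neither pair of groups overlapped. ACER2 rose by 0.78, BTG2 by 0.70, GADD45A by 0.50, CYFIP2 by 0.49, PLK3 by 0.45 and ANKRA2 by 0.39, with adjusted p from 1.61e-05 to 0.00225. ZMAT3 fell by 0.70 (adjusted p = 1.61e-06) and BLOC1S2 fell by 0.66 (adjusted p = 6.85e-09). APAF1 fell by 0.18 (adjusted p = 0.0312), a call that ended in 9 of 13 alternatives (adjusted p up to 0.232), DESeq2 among them. MDM2 differed by -0.16 and did not pass (adjusted p = 0.0882). With the replicate number as a block, FDXR was also called higher (0.28, adjusted p = 0.0101, against 0.0502 without the block). Over all genes, 46.2% of the calls in this comparison were higher, against 56.2% with upper-quartile scaling.

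**Figure D4:**
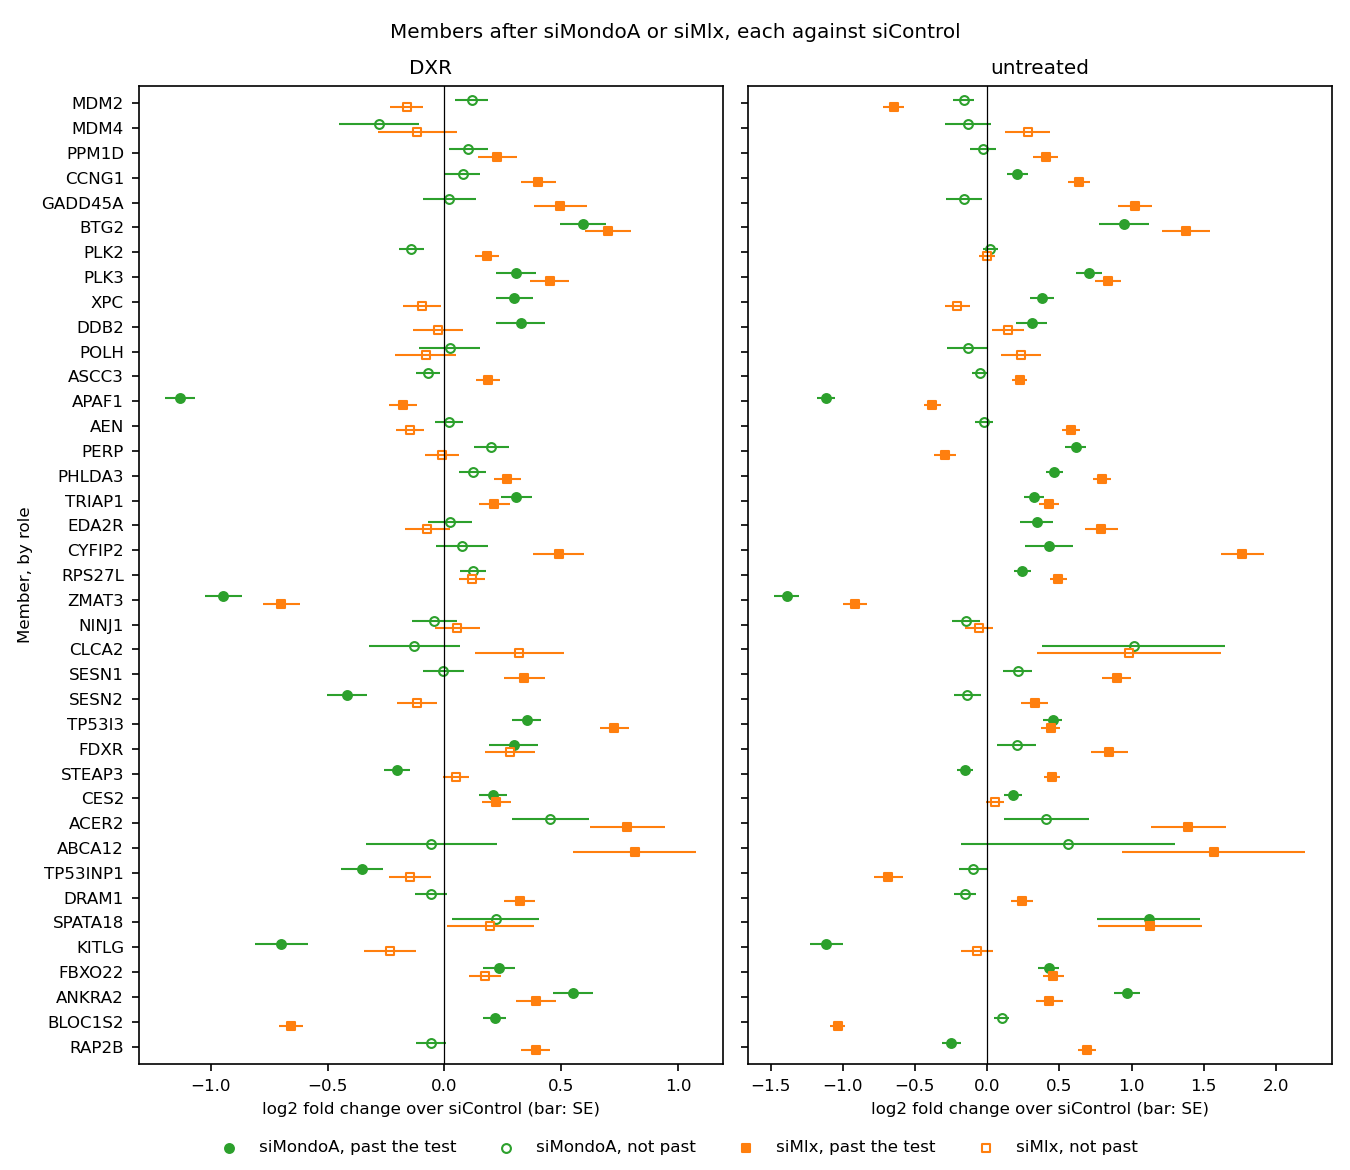
Log2 fold change of each member in siMondoA (green circles) and siMlx (orange squares) over siControl, in DXR cells on the left and untreated cells on the right, with SE bars; filled symbols passed the test. ZMAT3, APAF1 and KITLG lie farthest to the left for siMondoA in both panels, and BLOC1S2 and ZMAT3 for siMlx. Both siRNAs are set against the same siControl libraries.

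Since both siRNAs are compared with the same siControl libraries, their difference was tested directly. Without drug, 22 members were higher in siMlx than in siMondoA cells (30.4% of all tested genes) and 6 were lower (28.5% of all tested genes). CYFIP2 was higher by 1.34 (SE 0.15, adjusted p = 1.97e-07), GADD45A by 1.19 (SE 0.12, adjusted p = 7.81e-08), KITLG by 1.04 (SE 0.12, adjusted p = 2.13e-07) and RAP2B by 0.94 (SE 0.06, adjusted p = 1.67e-10). BLOC1S2 was lower, at a log2 difference of -1.14 (SE 0.05, adjusted p = 6.72e-13), PERP at -0.91 (SE 0.07, adjusted p = 3.35e-09), and TP53INP1 and XPC at -0.59 each. MDM2 was also lower in siMlx cells, at -0.48 (SE 0.07, adjusted p = 9.95e-06), with 82.7, 75.3 and 80.1 CPM in siMlx cells and 114, 107 and 113 CPM in siMondoA cells.

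With drug, 15 members were higher in siMlx than in siMondoA cells (20% of all tested genes) and 6 were lower (18.9% of all tested genes), or 3 lower without siMlx DXR replicate 1. APAF1 was higher by 0.95 (SE 0.06, adjusted p = 5.51e-10), and GADD45A, KITLG and RAP2B were higher by 0.48, 0.47 and 0.45. BLOC1S2 was lower, at a log2 difference of -0.87 (SE 0.05, adjusted p = 5.77e-11), XPC at -0.39 (adjusted p = 0.000616), DDB2 at -0.35 (adjusted p = 0.011) and MDM2 at -0.28 (SE 0.07, adjusted p = 0.00346). The DDB2 call ended without siMlx DXR replicate 1 or 2 or siMondoA DXR replicate 3 (adjusted p up to 0.0597). With the replicate number as a block, PHLDA3 (0.15, adjusted p = 0.0414) and TP53INP1 (0.20, adjusted p = 0.0452) were also called higher. Without the block their adjusted p were 0.0503 and 0.0792.

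Whether the drug response itself differed with the siRNA was tested as an interaction. With siMlx, 13 members had a lower DXR fold change than with siControl (5.81% of all tested genes) and 4 had a higher one (6.43% of all tested genes). AEN had 74.4, 78.7 and 79.9 CPM in siMlx DXR cells and 83.8, 84.5 and 89.6 CPM in siControl DXR cells. Without drug it had 55.9, 57.6 and 55.3 CPM in siMlx cells and 38.7, 33.8 and 40.2 CPM in siControl cells. The rise with DXR was smaller by 0.73 with siMlx, an interaction of -0.73 (SE 0.09, adjusted p = 1.27e-05). CYFIP2 had an interaction of -1.28 (SE 0.18, adjusted p = 0.000129), EDA2R of -0.86 (SE 0.15, adjusted p = 0.000629) and BTG2 of -0.68 (SE 0.19, adjusted p = 0.0258). The BTG2 call ended without any 1 of the 3 untreated siControl libraries, untreated siMlx replicate 1 or siMlx DXR replicate 1 (adjusted p 0.0515 to 0.0891). In AEN, CYFIP2, EDA2R and BTG2 alike the untreated level was higher with siMlx than with siControl. The interaction subtracts this untreated difference, so it is part of the same result and not a separate one.

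The members with a higher DXR fold change with siMlx were TP53INP1 (0.54, SE 0.14, adjusted p = 0.0132), MDM2 (0.49, SE 0.10, adjusted p = 0.00333), BLOC1S2 (0.38, SE 0.07, adjusted p = 0.00182) and TP53I3 (0.29, SE 0.09, adjusted p = 0.0389). The TP53I3 call ended in 9 of 19 alternatives (adjusted p up to 0.106). The first 3 of these genes were lower with siMlx than with siControl in untreated cells, a difference that is itself part of the interaction. For MDM2 the 95% interval of the siMlx difference in DXR cells was -0.31 to -0.0098, with an adjusted p of 0.0882. The proliferation genes moved in the interaction too, with 14 of 20 called lower.

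With siMondoA, 4 members had a lower DXR fold change than with siControl (4.28% of all tested genes) and 1 had a higher one (5.84% of all tested genes). PERP, PHLDA3, ANKRA2 and PLK3 had interactions of -0.41, -0.34, -0.42 and -0.40 (adjusted p 0.0132 to 0.0467), and ZMAT3 had one of 0.44 (SE 0.12, adjusted p = 0.0192). Each of these 5 calls ended in at least 1 alternative: PERP and PHLDA3 without siControl DXR replicate 2 (adjusted p = 0.0683 and 0.0675), ZMAT3 without untreated siMondoA replicate 2 (adjusted p = 0.066), and ANKRA2 and PLK3 in 11 of 19 alternatives each. The MDM2 interaction of 0.28 did not pass (adjusted p = 0.0822). Over all genes, 57.7% of the calls in this comparison were higher, against 45.4% with upper-quartile scaling.

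**Figure D5:**
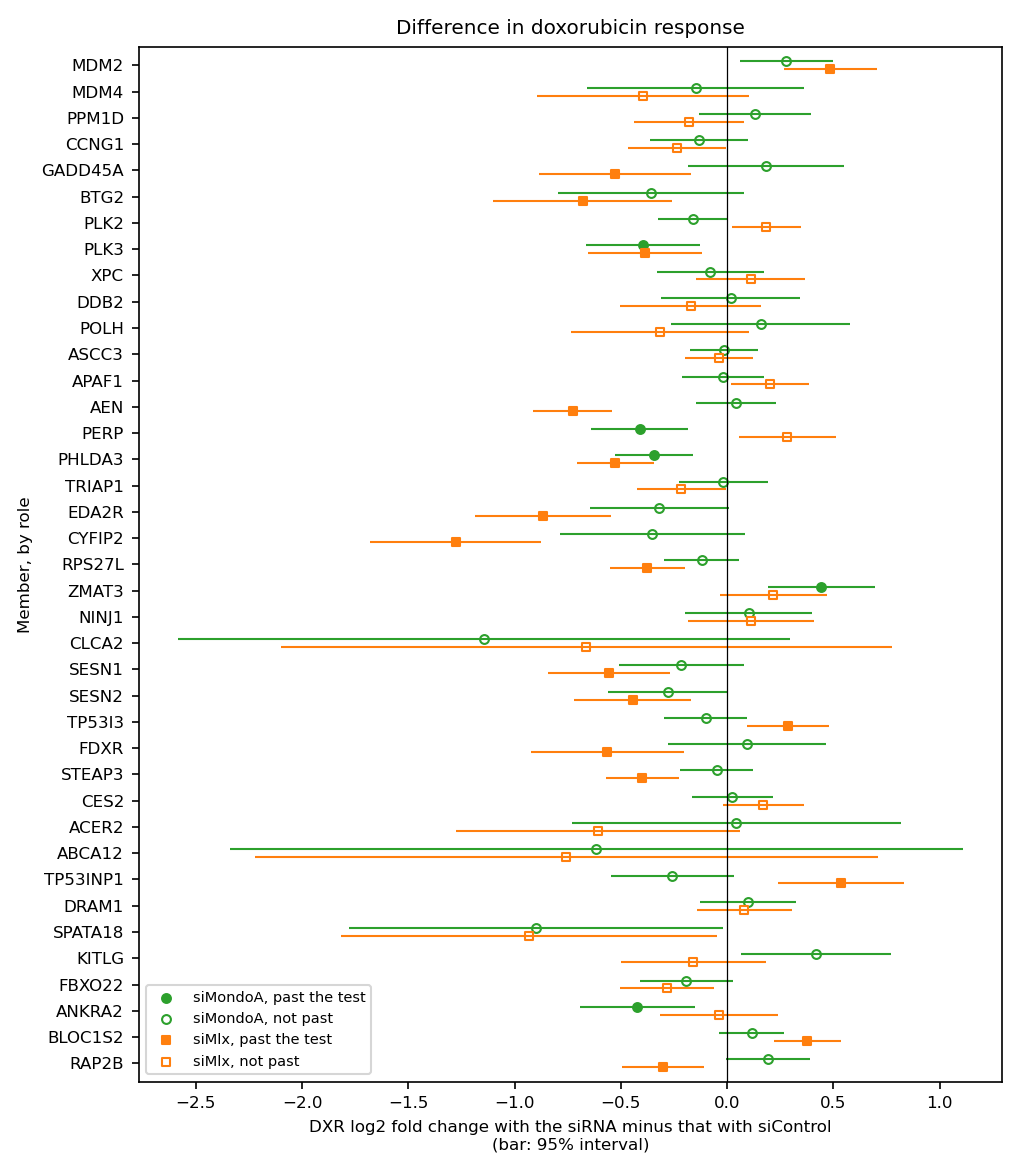
Difference in the DXR log2 fold change of each member, siMondoA (green circles) or siMlx (orange squares) minus siControl, with 95% intervals; filled symbols passed the test. The 13 filled squares left of 0 and the 4 right of 0 are the siMlx calls, with CYFIP2 at -1.28 and TP53INP1 at 0.54 at the ends.

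By role, in untreated cells 7 of 8 redox, metabolism and transport genes and 3 of 4 growth arrest genes were higher with siMlx than with siControl, beside 24.9% of all tested genes, and 2 of 8 and 2 of 4 were higher with siMondoA, beside 23.3%. In the direct comparison of siMlx with siMondoA without drug, 5 of 8 and 2 of 4 were called higher, beside 30.4% of all tested genes. Of the 11 cell death and survival genes, 6 were higher and 3 lower in untreated siMlx than siControl cells, beside 24.9% and 23% of all tested genes. In untreated siMondoA cells, 6 were higher and 2 lower, beside 23.3% and 23.3% of all tested genes. Of p53 targets of the CDK inhibitor, BCL2, death receptor and related families, 18 were tested. With siControl, DXR raised 14 of them and lowered 2, beside 28.1% and 28.6% of all tested genes. CDKN1A rose by 3.34 (SE 0.08, adjusted p = 6.33e-16).

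Per gene length, the members spanned a wide range. In DXR siControl cells the deposited RPKM (reads scaled by gene length and library total) ran from 0.216 for ABCA12 to 221 for PLK2, with a median of 14.1, and in untreated siControl cells from 0.00985 for ABCA12 to 219 for PLK2, with a median of 6.65. In DXR siControl cells 25 members were at 10 RPKM or more, and 16 were in untreated siControl cells. RPS27L, a ribosomal protein paralog, was second in both, at 126 RPKM in DXR and 72.8 RPKM in untreated cells.

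The 3′ UTRs of the members were also searched for short words. An siRNA can lower transcripts that match bases near its start in their 3′ UTR. The sequences of these siRNAs were not used here. Over the 3′ UTRs of 11385 tested genes, the 3 words of 7 bases most tied to a lower level in untreated cells, allowing for UTR length and GC content, were taken for each siRNA. The first of the 3 was TCCAGTA for siMondoA. For siMlx it was AATGAGA. The words were picked from 13451 on these same genes, so their link to lower levels is built in. Of genes holding at least 1 word, 38.2% were called lower with siMondoA, against 21.2% of genes with none, and 38.2% against 19% with siMlx. Of the members called lower, 3 of 5 held a siMondoA word (ZMAT3, RAP2B and KITLG), against 7 of the other 34, and 4 of 6 held a siMlx word (MDM2, ZMAT3, BLOC1S2 and APAF1), against 9 of the other 33. Over all 11385 genes, 2792 held a siMondoA word and 3390 held a siMlx word. The members were among the genes the words were picked on, so their counts are not a separate result. The 3′ UTRs of MDM2, ZMAT3 and RAP2B are long, at 10837, 7794 and 7375 bases, and a long UTR holds more words of any kind. The part of these words in the falls was not tested.

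In GENCODE release 29 (GRCh38), MDM2 spans chr12:68808176-68850686 on the plus strand, ZMAT3 chr3:179017223-179072279 on the minus strand, APAF1 chr12:98645141-98735433 on the plus strand, KITLG chr12:88492793-88580851 on the minus strand and BLOC1S2 chr10:100273280-100286712 on the minus strand. Exons of 16 members overlap exons of another gene, on the opposite strand in 15 and on the same strand in 3. These include MDM2 (with CPM, the gene), APAF1 (with ANKS1B), CYFIP2 (with ADAM19), ANKRA2 (with UTP15) and KITLG, and no source used here gives the strand setting of the count, so their values are uncertain to that extent. The labels do not say that replicates are separate cultures, and p-values measure the spread between these libraries.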

How the data were processed

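Poly(A) RNA of 18 libraries (6 groups of 3, from the labels) was sequenced with a stranded kit. The submitters' processing notes name bcl2fastq, TopHat2 2.1.1 and GRCh38. For the counting program, its annotation and its strand setting nothing is stated in these sources. The authors deposited raw counts per gene and RPKM for the same libraries. Here counts were fitted with edgeR 4.0.16 in R 4.3.3: filterByExpr by group (minimum count 10), TMM scaling, 1 mean per group over all libraries (12 residual degrees of freedom, biological coefficient of variation 7.42%), two-sided quasi-likelihood tests and Benjamini-Hochberg adjustment over 13676 genes at 0.05. SE is that of the fitted log2 fold change, taken from its size and the test's F statistic. The 95% intervals of log2 fold changes use the 12 residual degrees of freedom. The test also draws on the spread of other genes, so interval and p-value need not match. The deposited RPKM served only for levels between genes. In the other gene lists, 3 genes were found under older symbols. Intervals of count ratios cover counting error only.

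The members, their roles and the other gene lists were chosen with earlier results of these data known, and so were the tests. Full statistics were given for MDM2 and up to 8 members per direction (4 between siRNAs and for interactions) with the largest called change and at least 5 CPM in the higher group; BTG2 without drug, ABCA12 and other members under that level or named beside it were added after their values were seen. The alternatives tried were DESeq2 1.42.0, scaling by RLE or by the upper quartile, testing with no low-count filter, 1 CPM in 3 libraries, the compared groups fitted alone, the replicate number as a block, and each library left out. The model was tested on simulated data. Replicate numbers come from the labels, which do not say what they share. Libraries with the same number deviated together, with all 3 correlations over 0.1, for siMondoA against siControl without drug (0.101 to 0.33) and with DXR (0.175 to 0.274), siMlx against siControl with DXR (0.17 to 0.277) and siMlx against siMondoA with DXR (0.167 to 0.256). There the numbers were taken to pair libraries by this cut. For siMondoA against siControl without drug they do not single out the pairs. Untreated siMondoA replicate 2 and untreated siControl replicate 1 had 0.122, against 0.115 and 0.101 for the like-numbered pairs 1 and 2. Elsewhere at least 1 pair with the same number fell under 0.1, down to -0.0859. For siMlx against siControl without drug the 3 values were 0.195, 0.0515 and 0.245. The 3′ UTR words were searched in 1 GENCODE transcript per gene (the longest coding sequence), with a 3′ UTR of at least 50 bases and words held by at least 200 genes. Results for some genes outside the members are not reported here.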

Additional observations from a re-analysis of the deposited data

Results flagged for a closer look

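Results that differ between groups are the members whose DXR response with an siRNA differed from that with siControl by the interaction test. With siMondoA these were PERP (-0.41), PHLDA3 (-0.34), ANKRA2 (-0.42), PLK3 (-0.40) and ZMAT3 (0.44), on the log2 scale. With siMlx they were CYFIP2 (-1.28), EDA2R (-0.86), AEN (-0.73), BTG2 (-0.68), FDXR (-0.56), SESN1 (-0.56), GADD45A (-0.53), PHLDA3 (-0.53), SESN2 (-0.44), STEAP3 (-0.40), PLK3 (-0.39), RPS27L (-0.38), RAP2B (-0.30), TP53I3 (0.29), BLOC1S2 (0.38), MDM2 (0.49) and TP53INP1 (0.54). Adjusted p in edgeR's test ran from 1.27e-05 for AEN to 0.0467 for PLK3 with siMondoA. The siMlx calls of PHLDA3, BLOC1S2, MDM2, RPS27L, AEN, STEAP3, CYFIP2, SESN1, TP53INP1 and EDA2R held in every one of the 19 alternatives run. Those of GADD45A, PLK3, SESN2, FDXR and RAP2B ended in 8, 12, 6, 6 and 9 of them, in each case when any of several single libraries was left out (adjusted p up to 0.145).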

How the results depend on the processing

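No called member changed sign in any alternative run. The 1 member lower with DXR (APAF1) became 0 with DESeq2, with no low-count filter and with the groups fitted alone, both with siControl and with siMondoA; leaving out 1 library gave 0 to 1 with siControl and 0 with siMondoA. For the siMondoA interaction, members with a higher response numbered 3 with no low-count filter and 2 with the groups fitted alone, against 1, and 0 to 2 with a library left out; those with a lower one numbered 2 with the groups fitted alone, against 4, and 0 to 4 with a library left out (0 without siControl DXR replicate 2). For the siMlx interaction, members with a lower response ran from 7 to 13 (7 without untreated siControl replicate 1; 8 without untreated siControl replicate 2, untreated siMlx replicate 2, siControl DXR replicate 2 or siMlx DXR replicate 1). With 1 library left out, members higher with siMondoA than siControl in DXR cells numbered 6 to 12, against 11, and members lower with siMlx than siMondoA in DXR cells 3 to 5, against 6. The causes were not tested. With the replicate block, siMondoA against siControl in DXR cells gave 13 higher and 7 lower members, against 11 and 6. Where the numbers were not taken to pair libraries, the block gained XPC (adjusted p = 0.0224) and POLH (0.0426) and ended ABCA12 (0.0593) for siMlx against siControl without drug. Beside these and the calls named with the results, the block changed no member's call. Scaling moved the median of all genes by under 0.1 log2 units. Of the called members, 32 of 34 with DXR and siControl, 14 of 21 with siMondoA untreated and 26 of 30 with siMlx untreated kept the call in every alternative. Depth limits ABCA12 and CLCA2 in untreated cells, at 8 to 23 counts per group.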
